A study of Mus musculus with 4 samples.

Results

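The calcium and NFAT pathway was described from 10 genes chosen by symbol: the store sensors Stim1 and Stim2, the entry channel Orai1, the inositol trisphosphate receptors Itpr1, Itpr2 and Itpr3, the calcineurin subunit Ppp3ca, and the transcription factors Nfatc1, Nfatc2 and Nfatc3. All 10 were listed in all 4 libraries, among 20735 genes listed above 0 in at least 1 library, and all 10 were among the 10883 genes tested. Messenger RNA was measured in germinal centre B cells, antigen-activated cells in which antibody genes are mutated and better binders are kept. The cells were flow-sorted, with a gate the labels do not describe, from spleens of C57BL/6 mice 8 weeks of age immunized with SRBC, the usual abbreviation for sheep red blood cells, and this holds for both genotypes. There were 2 libraries from Nsd2 knockout (ko) cells and 2 from wild-type (wt) cells. Nsd2 encodes an enzyme that dimethylates histone H3 at lysine 36. The labels give neither the construction of the allele nor the cells of the ko mice that lack the gene. They also do not say that the libraries were separate mice, so the p-values measure the spread between these libraries, which may be technical.

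Values are FPKM, fragments scaled to transcript length and to library size, so levels can be set side by side between genes. Fold changes are differences of log2(FPKM + 1), ko minus wt, and a gene was called changed at a limma adjusted p below 0.05 (Benjamini-Hochberg, over all genes tested). Relative sequencing depth, read from the spacing of low values, was 75.6% for ko 1, 77.4% for ko 2 and 94.2% for wt 2 when wt 1 is taken as 100%. The targeted gene, listed under its older symbol Whsc1, was 31.4 and 34.1 FPKM in the ko libraries, against 76.9 and 81.4 FPKM in the wt libraries, a ratio of 0.414 (limma adjusted p = 0.000353). The 11 markers of the labelled cell type were present in every library. Cd79a, a signalling chain of the B cell receptor, was 579.2 and 590.8 FPKM in ko, against 563.9 and 581.4 FPKM in wt, and Ms4a1, which encodes CD20, was 578.8 and 569.7 FPKM in ko, against 602.2 and 599.1 FPKM in wt. The T cell genes Cd3e and Cd3d lay below 0.2 FPKM.

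When the B cell receptor is engaged, phospholipase C releases inositol trisphosphate, which opens ITPR channels in the endoplasmic reticulum and lets stored calcium out. STIM proteins sense the emptied store and open ORAI channels in the plasma membrane, and the calcium that enters binds calmodulin. Calmodulin activates the phosphatase calcineurin, which strips phosphates from NFATc proteins so that they enter the nucleus and bind DNA at a GGAAA core. Kinases such as GSK3 and DYRK1A put the phosphates back and send NFAT out of the nucleus.

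Ppp3ca, Itpr1 and Stim2 fell, to 0.732, 0.740 and 0.789 of their wt means, and Nfatc1 rose to 1.15 times its wt mean. These were 4 of 10 members past the threshold, 3 downward and 1 upward, where 12.9% of all genes tested passed, 6.66% upward and 6.2% downward. The members were chosen with earlier results of these data known, so this comparison is description and not a test. The median log2 fold change of the 10 members was -0.03, beside 0.01 over all genes tested, and their median absolute change was 0.16, beside 0.10. The genotypes did not overlap in 7 of the 10, a pattern found in 61.2% of all genes tested. Without the filter on low values none of the 10 passed (limma; 5 had an unadjusted p below 0.05), and without a trend of spread on expression only Ppp3ca and Itpr1 did. In bulk RNA, fewer cells of a kind that expresses a gene and less RNA per cell cannot be told apart.

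**Figure D1:**
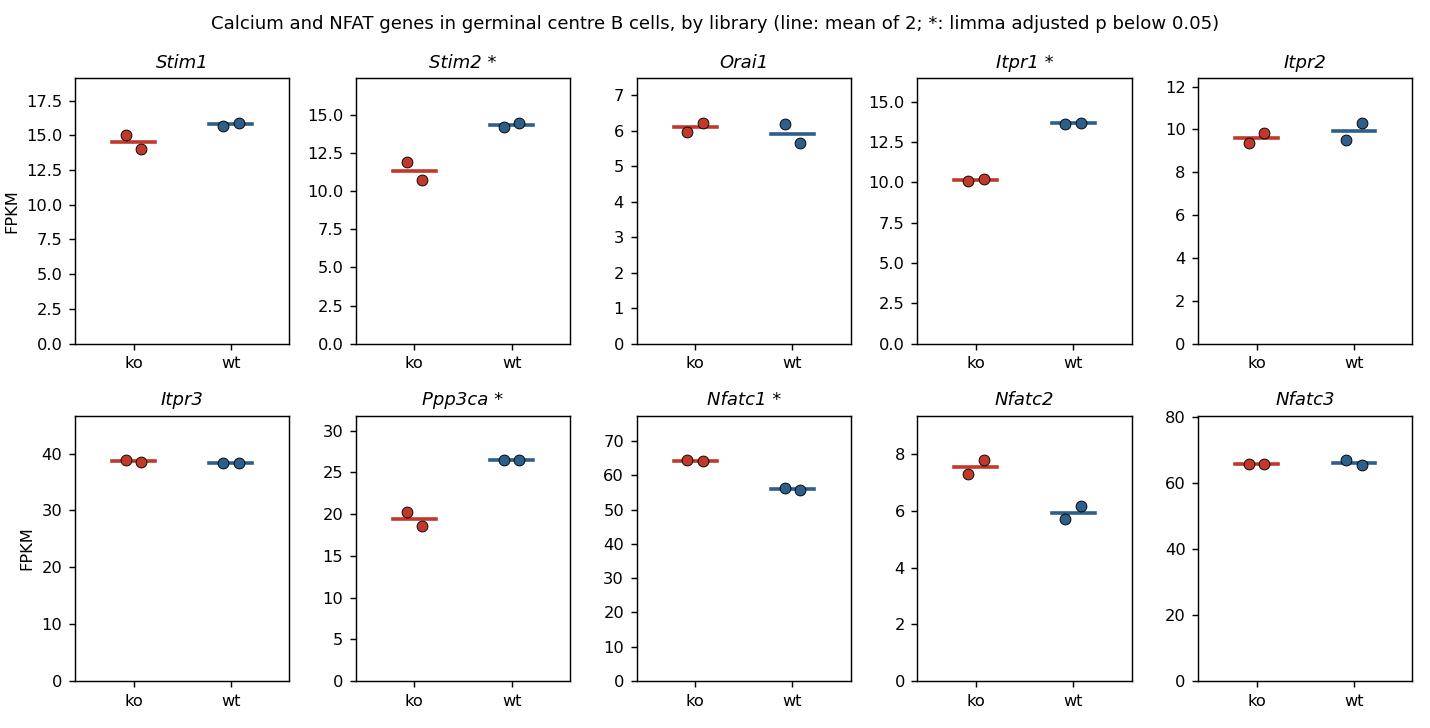
FPKM (y axis, from 0) of each of the 10 genes in each library, ko on the left and wt on the right; points are libraries, lines are means of 2, and an asterisk marks a limma adjusted p below 0.05. Stim2, Itpr1 and Ppp3ca sit lower in both ko libraries and Nfatc1 and Nfatc2 higher, while Itpr3 and Nfatc3 sit at nearly the same level in all 4.

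Stim1 (chr7:102267806-102437319, GRCm38) and Stim2 (chr5:53998499-54121057) encode calcium sensors of the endoplasmic reticulum membrane. STIM2 responds to small losses of stored calcium and STIM1 to larger ones. Stim2 was 11.9 and 10.7 FPKM in the ko libraries, against 14.2 and 14.5 FPKM in the wt libraries. Both ko libraries lay below both wt libraries, and ko 2 was the lower of the pair. The log2 fold change was -0.32 ± 0.07 (SE; limma adjusted p = 0.0322, n = 2 per group). Stim1 was 15.0 and 14.0 FPKM in ko, against 15.7 and 15.9 FPKM in wt. It lay lower in both ko libraries too, and its log2 fold change of -0.11 did not pass the threshold (95% interval -0.25 to 0.02, limma adjusted p = 0.219). The call for Stim2 was lost without ko 2, wt 1 or wt 2 (limma adjusted p = 0.104, 0.0940 and 0.105) and when a trend on genomic span was removed (0.0659).

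Orai1 (chr5:123015074-123030456) encodes the pore subunit through which calcium enters. Orai1 was 5.98 and 6.23 FPKM in ko, against 6.20 and 5.66 FPKM in wt. The groups overlapped, and the log2 fold change was 0.04 (95% interval -0.15 to 0.23, limma adjusted p = 0.781). Its sign turned without wt 2 (-0.02) and with a trend on GC content removed (-0.05). The files give Orai1 a locus of 180.4 kb, while the annotated gene spans 15.4 kb, so the locus in the files reaches well beyond the gene. The related channel genes Orai2 and Orai3 were more abundant. Orai2 was 18.6 and 19.4 FPKM in ko, against 17.4 and 18.6 FPKM in wt, and Orai3 was 12.002 and 13.7 FPKM in ko, against 12.4 and 14.1 FPKM in wt. Neither passed the threshold (limma adjusted p = 0.387 and 0.801).

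The 3 inositol trisphosphate receptors, which form tetrameric release channels and differ in sensitivity to the messenger and to calcium, did not share a pattern. Itpr1 lies at chr6:108213096-108551109, Itpr2 at chr6:146108299-146502223 and Itpr3 at chr17:27057304-27122223. Itpr1 was 10.1 and 10.2 FPKM in the ko libraries, against 13.6 and 13.7 FPKM in the wt libraries. Both libraries of each genotype were nearly equal and the groups were far apart. Its log2 fold change was -0.40 ± 0.05 (SE; 95% interval -0.53 to -0.27; limma adjusted p = 0.0124). Itpr2 was 9.37 and 9.84 FPKM in ko, against 9.52 and 10.3 FPKM in wt, overlapping groups with a log2 fold change of -0.04 (95% interval -0.21 to 0.12, limma adjusted p = 0.722). Itpr3, the most abundant of the 3, was 38.9 and 38.4 FPKM in ko, against 38.4 and 38.4 FPKM in wt. The ko libraries lay above wt by a margin smaller than the gap between them. Its log2 fold change was 0.01, with a 95% interval from -0.08 to 0.10 (limma adjusted p = 0.871). The call for Itpr1 was lost without wt 1 (limma adjusted p = 0.0516), where the log2 fold change was still -0.40. Itpr2 turned to 0.11 with the trend on span removed and to 0.01 without wt 2, and Itpr3 turned to -0.07 with the trend on GC content removed and to -0.01 after quantile normalization.

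Ppp3ca (chr3:136670124-136937727) encodes a catalytic subunit of calcineurin, which works as a pair of a catalytic and a calcium-binding regulatory subunit. Ppp3ca was 20.2 and 18.5 FPKM in the ko libraries, against 26.5 and 26.4 FPKM in the wt libraries. Both ko libraries lay well below wt, with a wider gap between the ko pair than between the wt pair. The log2 fold change was -0.43 ± 0.05 (SE; 95% interval -0.56 to -0.30; limma adjusted p = 0.0104), and the call stood with each library left out in turn (0.0203 to 0.0390). The other catalytic genes were Ppp3cb, with 62.2 and 64.1 FPKM in ko against 66.4 and 67.3 FPKM in wt, and Ppp3cc, with 31.8 and 32.3 FPKM in ko against 30.9 and 31.1 FPKM in wt. Neither passed the threshold (limma adjusted p = 0.148 and 0.459). The regulatory subunit Ppp3r1 was 64.5 and 63.4 FPKM in ko, against 63.2 and 63.6 FPKM in wt (limma adjusted p = 0.828). Summed over the 3 catalytic genes, the level was 114.1 and 114.9 FPKM in ko, against 123.8 and 124.8 FPKM in wt.

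NFATc factors are the transcription factors that calcineurin releases into the nucleus. Nfatc2 lies at chr2:168476410-168601657 and Nfatc3 at chr8:106058840-106130537. Nfatc1 was 64.5 and 64.2 FPKM in the ko libraries, against 56.4 and 55.6 FPKM in the wt libraries. Both ko libraries lay above both wt libraries, and each pair was tight. Its log2 fold change was 0.20 ± 0.03 (SE; 95% interval 0.12 to 0.27; limma adjusted p = 0.0176). Leaving out any single library ended the call (limma adjusted p = 0.0585 to 0.0655), with a log2 fold change of 0.19 to 0.21. Nfatc2, the least abundant of the 3, was 7.29 and 7.81 FPKM in ko, against 5.72 and 6.18 FPKM in wt. The groups did not overlap, and its log2 fold change of 0.30 ± 0.08 (SE) just missed the threshold (limma adjusted p = 0.0516). It passed with the trend on genomic span removed (0.38, limma adjusted p = 0.0299), with a floor of 5 FPKM on the mean (0.0460) and after quantile normalization (0.0484). Nfatc3 was 65.6 and 65.8 FPKM in ko, against 66.9 and 65.4 FPKM in wt. The groups overlapped, and the log2 fold change of -0.01 had a 95% interval from -0.09 to 0.07 (limma adjusted p = 0.856), turning to 0.01 without wt 1, 0.03 with the span trend removed and 0.02 with the GC trend removed. Nfatc1 RNA is made from more than 1 promoter, and the files give a single value per gene, so its isoforms were not separated.

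The promoters of Nfatc2 and Stim2 are shown because these genes lay on opposite sides, Nfatc2 higher in ko and Stim2 lower, and because NFAT proteins bind the GGAAA core. Nfatc2 just missed the threshold (limma adjusted p = 0.0516), and the call for Stim2 was lost in some of the repeated fits. Both genes were picked by their values, and a link between matches and direction was not tested. Each run is the 250 bases before an annotated start, from RefSeq on GRCm38.p6, and capitals mark GGAAA or its complement TTTCC on either strand. Nfatc2 has 2 annotated starts.
Nfatc2, first start, chr2:168601658-168601907, minus strand: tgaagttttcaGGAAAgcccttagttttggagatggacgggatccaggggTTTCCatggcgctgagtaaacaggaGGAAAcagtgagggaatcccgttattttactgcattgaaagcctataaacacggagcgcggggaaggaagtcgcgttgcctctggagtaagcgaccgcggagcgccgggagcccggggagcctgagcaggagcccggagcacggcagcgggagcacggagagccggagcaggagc
Nfatc2, second start, chr2:168590366-168590615, minus strand: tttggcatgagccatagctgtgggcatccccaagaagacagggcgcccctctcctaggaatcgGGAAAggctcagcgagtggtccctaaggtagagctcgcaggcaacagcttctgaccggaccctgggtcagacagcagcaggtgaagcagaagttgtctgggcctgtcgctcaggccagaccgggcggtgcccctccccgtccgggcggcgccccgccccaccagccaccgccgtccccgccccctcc
Stim2, chr5:53998273-53998522, plus strand: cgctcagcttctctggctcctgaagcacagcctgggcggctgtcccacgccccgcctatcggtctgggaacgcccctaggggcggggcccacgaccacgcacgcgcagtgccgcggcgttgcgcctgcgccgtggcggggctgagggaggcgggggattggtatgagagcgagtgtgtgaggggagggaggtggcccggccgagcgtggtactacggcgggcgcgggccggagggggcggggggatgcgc
The first Nfatc2 window held 3 matches, the second 1 and the Stim2 window 0. Of 32851 promoter windows of this length in the table, 55.6% held at least 1 match, with a median of 1, so a match is a common feature of such windows. Promoter entries existed for 7 of the 10 genes, 9 windows in all, of which 3 held a match: both of Nfatc2 and 1 of the windows of Nfatc3. Itpr1, Ppp3ca and Nfatc1, which passed the threshold, had no entry. The windows of Stim1, Stim2, Orai1, Itpr2 and Itpr3 held none and were 70.8% to 78.4% G and C, beside 59.6% and 67.6% for Nfatc2. For Nfatc3, the window with a match was 49.6% G and C and the window without one 65.2%. The bases after the start of both Nfatc3 windows were not found in an annotated transcript of the gene, so these starts are less certain.

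Ordered by level, the genes ran from Nfatc3, Nfatc1 and Itpr3 at the top through Ppp3ca, Stim1, Stim2, Itpr1 and Itpr2 to Nfatc2 and Orai1 at the bottom, in ko and in wt alike. The ko means ran from 65.7 FPKM for Nfatc3 to 6.11 FPKM for Orai1, and the wt means from 66.1 FPKM for Nfatc3 to 5.93 FPKM for Orai1. In wt, Nfatc2 and Orai1 were not separated, as their ranges met. In ko, every neighbouring pair had separate ranges. Nfatc3 and Nfatc1 lay close together in ko, at means of 65.7 and 64.4 FPKM, and farther apart in wt, at 66.1 and 56.0 FPKM.

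Shares within each family do not depend on how the libraries were scaled to each other, but they were not recomputed with the trend on genomic span removed. A share also moves when only another gene of the family changes. Itpr3 and Nfatc3 had log2 fold changes of 0.01 and -0.01 in their own levels. Itpr1 made up 17.3% ± 0.11 of the summed FPKM of the 3 receptors in ko and 22.1% ± 0.14 in wt (SD, n = 2 each), and Itpr3 made up 66.2% ± 0.64 in ko and 61.9% ± 0.63 in wt. Stim2 made up 43.8% ± 0.65 of STIM RNA in ko and 47.7% ± 0.07 in wt. Ppp3ca made up 16.9% ± 1.11 of the catalytic calcineurin RNA in ko and 21.3% ± 0.16 in wt, and Ppp3cc 28.0% ± 0.18 in ko and 24.9% ± 0.05 in wt. Nfatc1 made up 46.8% ± 0.25 of NFATc RNA in ko and 43.7% ± 0.04 in wt, while Nfatc3 made up 47.7% ± 0.0024 in ko and 51.6% ± 0.33 in wt. In each of these the genotypes did not overlap, and the exact permutation test (two-sided) gave p = 0.333 for each, the smallest it can give for 2 libraries against 2. The share of Orai1 among the 3 channels, 16.1% ± 0.35 in ko and 16.0% ± 1.75 in wt, overlapped. Summed NFATc RNA was 137.4 and 137.7 FPKM in ko, against 129.0 and 127.2 FPKM in wt.

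**Figure D2:**
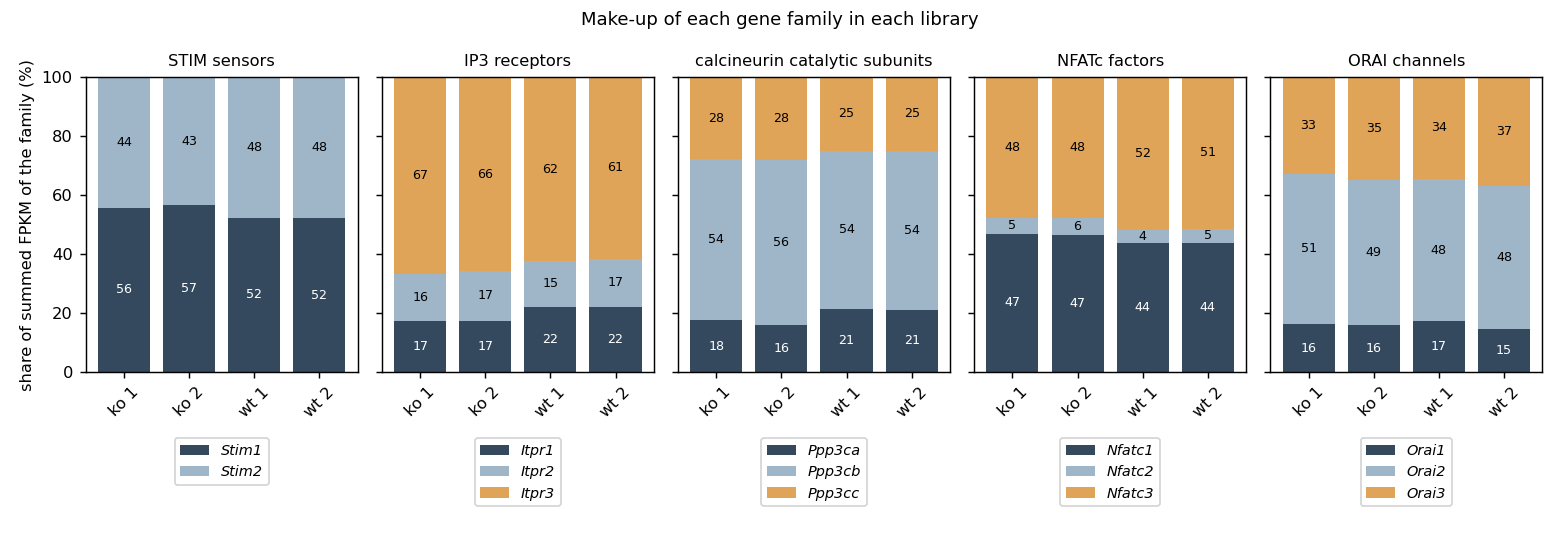
Share (y axis, %) of each gene in the summed FPKM of its family, for each library on the x axis, ko before wt; each bar adds up to 100 and the numbers are rounded shares. Itpr1 takes 17.3% in ko and 22.1% in wt, Ppp3ca 16.9% in ko and 21.3% in wt, and Nfatc1 46.8% in ko and 43.7% in wt.

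The 3 genes that fell are long. Long genes lay lower in ko across the transcriptome, with a median log2 fold change of -0.15 over the 290 tested genes that span more than 200 kb, beside 0.05 over the 3354 of up to 10 kb. Of the genes over 100 kb, 17.1% fell and 3.14% rose, and 7 of the 10 members are in this class of 1019 genes. Itpr1 spans 338.0 kb, Ppp3ca 267.6 kb and Stim2 122.6 kb. Itpr2, at 393.9 kb the longest of the 10, did not pass the threshold, and Nfatc1 at 106.9 kb rose. With the trend on span removed from each library, the log2 fold change was -0.30 for Ppp3ca (limma adjusted p = 0.0238) and -0.25 for Itpr1 (0.0358), both still past the threshold, and -0.24 for Stim2, which was not. All 3 moved towards 0 under this removal, from -0.43 for Ppp3ca, -0.40 for Itpr1 and -0.32 for Stim2. With the trend on GC content removed, the same 4 genes passed, at -0.40 for Ppp3ca and Itpr1, -0.31 for Stim2 and 0.15 for Nfatc1.

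**Figure D3:**
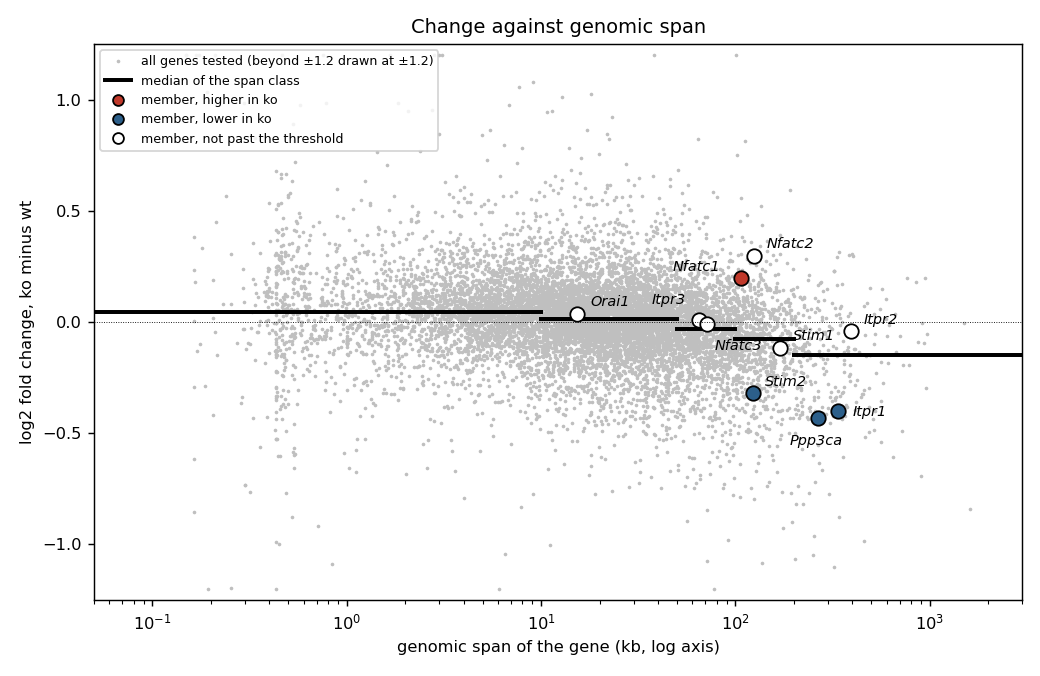
Log2 fold change, ko minus wt (y axis), against genomic span in kb (x axis, log scale) for all genes tested (grey), with black lines at the median of each span class and the 10 members as large points. Ppp3ca and Itpr1 lie below the median of -0.15 of genes over 200 kb, Itpr2 lies above it, and Nfatc1 and Nfatc2 lie well above the median of -0.08 of genes of 100 to 200 kb.

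**Figure D4:**
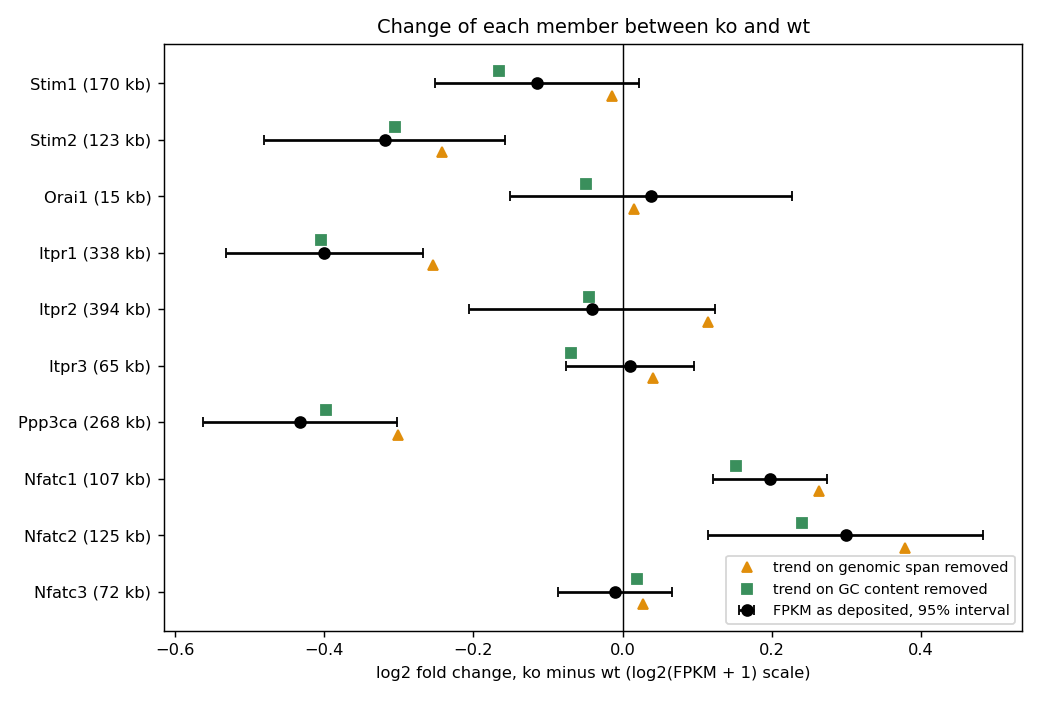
Log2 fold change, ko minus wt (x axis), of each gene with its 95% interval from limma (black), and the value with the trend on genomic span (triangles) or GC content (squares) removed; spans in kb stand beside the names. Ppp3ca stays at -0.30 and Itpr1 at -0.25 without the span trend, and Nfatc2 lies at 0.38.

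Other genes of the pathway were followed in 4 lists of 83 symbols, 65 of them tested, and 8 rose and 6 fell (limma adjusted p below 0.05). This was 21.5% of the tested genes, beside 12.9% of all, and their median log2 fold change was 0.02, beside 0.01 over all. When 1 library was left out, 1 to 4 of these 14 calls stood: 2 without ko 1, 1 without ko 2, 2 without wt 1 and 4 without wt 2. With the trend on genomic span removed 10 of the 14 stood, and with the trend on GC content removed 10 did. The 8 that rose include Homer3, which was tested only through its ko level. The lists were chosen with earlier results of these data known. Their shares, here and list by list below, are therefore description and not a test.

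Of 21 tested genes of the store and of calcium entry, 3 rose and 1 fell, or 19.0%, beside 12.9% of all genes tested. Their median log2 fold change was -0.01. Plcg1, a phospholipase C, was 7.62 and 7.22 FPKM in ko, against 4.997 and 5.75 FPKM in wt (log2 fold change 0.40, limma adjusted p = 0.0331). Plcg2, the form that serves the B cell receptor, was far more abundant, with 138.0 and 139.8 FPKM in ko against 132.4 and 134.4 FPKM in wt, and did not pass (limma adjusted p = 0.196). Kcnn4, a potassium channel that calcium opens and that sustains calcium entry, was 47.5 and 49.6 FPKM in ko, against 40.1 and 40.1 FPKM in wt (0.27, limma adjusted p = 0.0130). Calr, the store's calcium-binding chaperone, was 259.7 and 262.4 FPKM in ko, against 241.4 and 240.9 FPKM in wt (0.11, limma adjusted p = 0.0302), and with the span trend removed it was 0.07 and missed the threshold (limma adjusted p = 0.0997). Atp2b1, a plasma membrane pump that removes calcium, was 10.3 and 10.6 FPKM in ko, against 12.8 and 13.5 FPKM in wt (-0.30, limma adjusted p = 0.0280). It spans 111.7 kb, and with the span trend removed it was -0.23 and missed the threshold (limma adjusted p = 0.0515).

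Of 17 tested calmodulin and calcineurin genes, 1 rose and 4 fell, or 29.4%, beside 12.9% of all genes tested. Their median log2 fold change was -0.04. Calm2, a calmodulin gene, was 235.6 and 234.1 FPKM in ko, against 261.2 and 256.0 FPKM in wt (-0.14, limma adjusted p = 0.0211), and with the GC trend removed it was -0.09 and missed the threshold (limma adjusted p = 0.0547). Calm3, which encodes the same protein, had a log2 fold change of 0.03 and did not pass (limma adjusted p = 0.696). Camk2d, a calmodulin-dependent kinase, was 39.7 and 41.3 FPKM in ko, against 47.5 and 45.4 FPKM in wt (-0.19, limma adjusted p = 0.0339). It spans over 200 kb, and its log2 fold change was -0.07 with the span trend removed and -0.15 with the GC trend removed, both short of the threshold (limma adjusted p = 0.364 and 0.0708). Ppia, the cyclophilin through which cyclosporin blocks calcineurin, was 1420.2 and 1432 FPKM in ko, against 1524 and 1512 FPKM in wt (-0.09, limma adjusted p = 0.0341). Ppia and Calm2 have processed copies of similar sequence, so the split of their reads is uncertain. The gene that rose, Cabin1, encodes an inhibitor of calcineurin, with 20.4 and 20.9 FPKM in ko against 16.9 and 17.2 FPKM in wt (0.26, limma adjusted p = 0.0212). Rcan1, another calcineurin regulator and itself an NFAT target, was 1.96 and 2.12 FPKM in ko, against 2.14 and 2.09 FPKM in wt (limma adjusted p = 0.822).

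Of 17 tested NFAT relatives, NFAT kinases and partners, 2 rose and 1 fell, or 17.6%, beside 12.9% of all genes tested. Their median log2 fold change was 0.04. Gsk3b, a kinase that sends NFAT out of the nucleus, was 11.96 and 12.8 FPKM in ko, against 14.5 and 16.1 FPKM in wt (-0.28, limma adjusted p = 0.0468). It spans 157.1 kb, and its log2 fold change was -0.19 with the span trend removed and -0.25 with the GC trend removed, both short of the threshold (limma adjusted p = 0.119 and 0.0624). Dyrk1a, which primes NFAT for GSK3, was 31.6 and 31.6 FPKM in ko, against 34.7 and 36.4 FPKM in wt, and just missed the threshold (-0.17, limma adjusted p = 0.0502). Csnk1a1, another NFAT kinase, was 140.4 and 137.0 FPKM in ko, against 126.1 and 126.3 FPKM in wt (0.13, limma adjusted p = 0.0301), a call that quantile normalization ended. Homer3, a scaffold protein that competes with calcineurin for NFAT, was 1.31 and 1.602 FPKM in ko, against 0.669 and 0.576 FPKM in wt (0.60, limma adjusted p = 0.0324), near the low end of what was tested. Its wt mean of 0.622 FPKM lay below the floor of 1 FPKM and its ko mean of 1.45 FPKM above it. Homer3 was thus tested only through its ko level, and its rise, though counted here, cannot serve as support.

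Of 20 genes that NFAT is known to act on in lymphocytes, 11 had enough RNA to test, and 2 rose and 0 fell. This was 18.2% of the 11, beside 12.9% of all genes tested. Nr4a1, an orphan nuclear receptor induced by antigen receptor signals, was 10.1 and 10.1 FPKM in ko, against 7.01 and 6.15 FPKM in wt (log2 fold change 0.55, limma adjusted p = 0.0133). Egr3, a zinc finger factor, was 9.42 and 8.01 FPKM in ko, against 5.81 and 5.96 FPKM in wt (0.49, limma adjusted p = 0.0221). Both stood apart from the wt libraries in each ko library. Its relative Egr2 had a log2 fold change of -0.01 and Myc one of 0.14, and neither passed (limma adjusted p = 0.928 and 0.160). The median of the 11 was -0.01.

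Genes that respond to cell handling, which include Nr4a1, moved beside these: 8 of 19 tested rose and 0 fell. This was 42.1%, where 6.66% of all genes tested rose. Their median log2 fold change was 0.14, and 5 of the 19 lay below 0. The 8 include Hspa1a, at means of 2.51 FPKM in ko and 0.956 FPKM in wt. It passed the floor of 1 FPKM only through its ko level. The heat shock gene Hspa1b had the largest change of the list, with 6.21 and 6.78 FPKM in ko, against 1.84 and 2.29 FPKM in wt. Hspa8, the most abundant of the list before Hsp90aa1 and Hsph1, was 1040 and 1052 FPKM in ko, against 995.7 and 1012 FPKM in wt. The 12 T cell markers summed to 43.1 and 48.1 FPKM in ko, against 38.9 and 38.7 FPKM in wt, nearly all of it Lck. Without Lck they summed to 3.64 and 3.82 FPKM in ko, against 1.95 and 2.32 FPKM in wt, and Cd3e was 0.189 and 0.113 FPKM in ko and 0 and 0.0920 FPKM in wt. Trac was 1.16 and 1.42 FPKM in ko, against 0.456 and 0.355 FPKM in wt, and Thy1 was 0.824 and 0.895 FPKM in ko, against 0.440 and 0.472 FPKM in wt. For monocytes and macrophages, 11 of 12 markers had a higher mean in ko, and their sum was 18.9 and 18.4 FPKM in ko, against 13.4 and 12.5 FPKM in wt. Mpeg1, Cd68 and Lyz2 led it, with Lyz2 at 1.59 and 1.64 FPKM in ko, against 0.333 and 0.605 FPKM in wt, and 9 of the 12 averaged below 1 FPKM. The 8 dendritic cell markers summed to 11.6 and 11.02 FPKM in ko, against 8.85 and 9.29 FPKM in wt, nearly all of it Flt3, with Itgax and Zbtb46 below 0.4 FPKM. Plasma cell markers, led by Jchain, Xbp1 and Prdm1, summed to 663.5 and 662.7 FPKM in ko, against 668.1 and 668.9 FPKM in wt. Most of that sum was Jchain, and 2 of the 5 markers had a higher mean in ko. Erythroid and stromal markers, led by Cr1l, Pecam1 and Hbb-bs, summed to 79.1 and 74.1 FPKM in ko, against 77.0 and 77.9 FPKM in wt. Most of that sum was Cr1l, which had a lower mean in ko, while 5 of the 6 listed markers had a higher one. The part of handling or of other cells in the values of Nfatc1, Nfatc2, Nr4a1 and Egr3 was not tested.

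**Figure D5:**
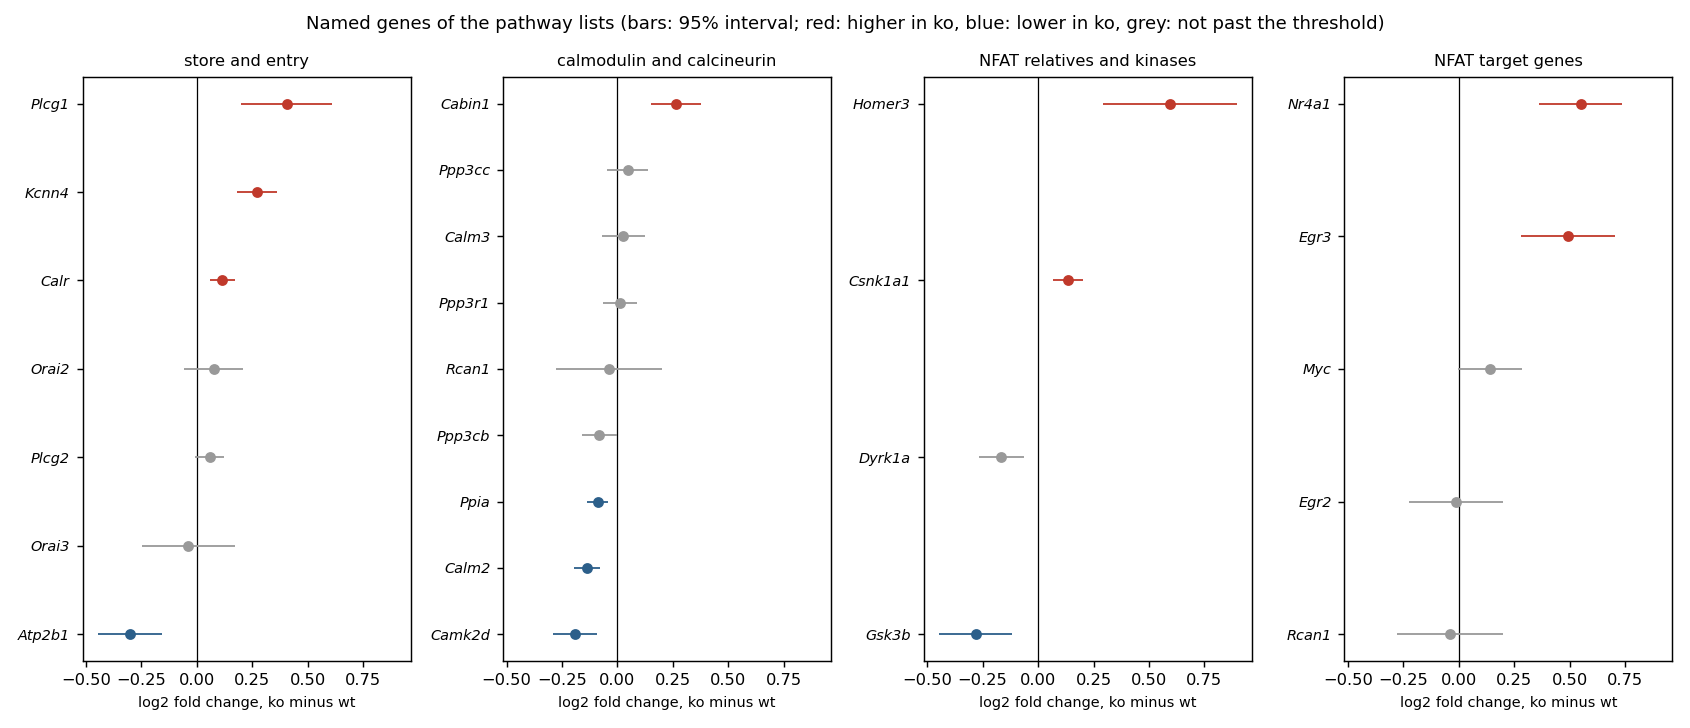
Log2 fold change, ko minus wt (x axis), with 95% intervals from limma, for tested genes of the 4 pathway lists that are reported by name; red passed the threshold upward, blue downward, grey did not pass. Nr4a1 at 0.55 and Homer3 at 0.60 lie farthest to the right, and Atp2b1 at -0.30 farthest to the left. Homer3 was tested only through its ko level.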

How the data were processed

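Per the labels, sorted cells were lysed and a kit for mRNA sequencing was used. Each of the 4 libraries has a deposited table of FPKM per gene, per the file headers, with no read counts. Per the submitters' processing notes, TopHat2 2.1.1, Bowtie2 2.2.9 and mm10 were used. Roles and settings of these tools, the program that gave FPKM, and strand use are not stated there. Genes absent from a table were set to 0. GENCODE M21 on GRCm38, the assembly of mm10, matched 99.4% of 20735 gene IDs and gave spans, GC content and overlaps. Relative depth was read from the commonest ratio of values below 0.15 FPKM between libraries, so absolute depth is unknown.

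Differences between ko and wt were tested on log2(FPKM + 1) by limma 3.58.1 (R 4.3.3), letting the prior spread follow expression. This covered 10883 genes whose mean over the 4 libraries reached 1 FPKM. Adjustment was Benjamini-Hochberg over all of them at 0.05. SE and 95% intervals come from that fit, with prior degrees of freedom of 4.39 and residual of 2. Fold changes on this scale understate changes of low genes. The members and the gene lists were chosen with earlier results of these data known. Named genes were Nsd2, all members, every pathway list gene past the threshold or, in a list with under 3 such genes, those of smallest p up to 3, and the most abundant markers. Orai2, Orai3, Ppp3cb, Ppp3cc, Ppp3r1, Plcg2, Calm3, Rcan1, Dyrk1a, Egr2, Cd3d, Cd3e, Hspa1a and Hspa1b were named outside that rule, after their values were seen. Some genes of the lists are counted but not reported here by name. Replicate numbers in the labels do not pair the libraries. Other computing used Python 3.11.15 with numpy 2.4.6, pandas 2.3.3 and matplotlib 3.10.9. Exact permutation tests are two-sided.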

Additional observations from a re-analysis of the deposited data

How the results depend on the processing

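The fit was repeated with other pseudocounts, filters, scalings and thresholds, without the trend of spread, with a replicate block, without each library, and with trends on span or GC content removed. The count of changed genes, 1400 in the reported fit, was 14 with no filter on low values, 536 without the trend of spread, 917 with the replicate block, 2540 at an adjusted p below 0.10, and 348 to 595 with 1 library left out. The count of members past the threshold, 4 as reported, was 0 with no filter (limma; 5 of 10 at an unadjusted p below 0.05), 2 without the trend of spread, and 1 to 3 with 1 library left out. The 14 pathway genes past the threshold were 0 with no filter and 2 without the trend of spread. The cause was not tested. A genotype reduced to 1 library was assumed to vary like the other. With the replicate block, Stim2 missed the threshold (adjusted p = 0.0550). The deviations of ko 1 and wt 1 from their group means had r = -0.083 over 10883 genes, so the numbers give no sign of pairing. Stim2, Itpr1, Ppp3ca and Nfatc1 kept their direction under all 15 alternatives, most of which could not have turned it. Other filters, the wider threshold, the trend of spread and the block leave the fold change as it is. Another pseudocount or the loss of 1 library cannot turn a gene whose groups do not overlap. Signs of genes near 0 turned: with the span trend removed Itpr2 was 0.114 and Nfatc3 0.0273; with the GC trend removed Orai1 was -0.0489, Itpr3 -0.0694 and Nfatc3 0.0197; after quantile normalization Itpr3 was -0.00839. With 1 library left out, Itpr2 ran from -0.0940 to 0.0122, Orai1 from -0.0191 to 0.0941 and Nfatc3 from -0.0269 to 0.00686. The ko libraries were the shallower ones, and with 2 libraries a group small changes cannot be told from spread.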
